A study of Mus musculus with 10 samples.

Results

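The genes described here are 10 mouse genes for extracellular nucleotide and adenosine handling, chosen by name: Entpd1, Entpd2, Entpd3, Enpp1, Enpp3, Nt5e, Ada, Adora1, Adora2a and Adora2b. They are 10 of the 47643 genes in the deposited tables, each matched 1 row by its symbol, and all 10 passed the filter on low counts that left 14816 genes for testing. The set was built around Entpd2, which had passed the threshold in the comparison of Fes KO with Fes WT tumours, so its difference in that comparison is given as a description. RNA was sequenced from 10 melanomas, 5 Fes KO and 5 Fes WT. All tumours came from mice with Tyr::CreERT2/+, a tamoxifen-activated Cre recombinase driven by the tyrosinase promoter of the melanocyte lineage, together with BRafV600E/+ and Ptenl/l, and the back skin was treated with 4-hydroxytamoxifen at 5 mM. The Fes KO tumours were Fes-/- and the Fes WT tumours Fes+/+; the labels give neither the cells in which Fes was lost nor the age of the mice, and whether each tumour is from its own mouse is not stated in them. The p-values therefore measure the spread between these tumours, part of which may be technical. They treat the tumours as independent, and may be too small if some tumours shared a mouse.

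ATP released by stressed or dying cells acts outside the cell on P2 receptors and is cut down stepwise to adenosine. NTPDases, encoded by Entpd1 (CD39), Entpd2 and Entpd3, remove phosphates from nucleotides. Entpd2 strongly prefers ATP and releases ADP, whereas Entpd1 takes ATP and ADP down to AMP. The pyrophosphatases encoded by Enpp1 and Enpp3 cut ATP directly to AMP and pyrophosphate. The 5'-nucleotidase encoded by Nt5e (CD73) turns AMP into adenosine, and adenosine deaminase, encoded by Ada, turns adenosine into inosine. Adenosine acts on receptors that lower cyclic AMP, such as that of Adora1, or raise it, such as those of Adora2a and Adora2b. In tumours this route is known for damping T cell activity.

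Total counts were 13226783 to 16599120 per tumour. The label of melanoma was set beside lineage markers. The lineage gene Sox10 was at 392 to 970 CPM (read counts scaled to library size with the TMM factors of edgeR) in all tumours. Sox10 is counted here among the Schwann cell markers. The pigment enzyme gene Tyr was at no more than 2.03 CPM in Fes WT and reached 51.1 CPM in 1 Fes KO tumour. The 10 melanocyte markers, Tyr among them, summed to 55.5 to 75.1 CPM in Fes WT. In Fes KO they summed to 42.2 to 107 CPM, apart from 602 CPM in Fes KO 2. The 12 Schwann cell markers summed to 2971 to 5347 CPM in Fes WT and 2134 to 5754 CPM in Fes KO. These levels do not settle the label. Fes, the targeted gene, was at 29.2 to 57.5 CPM in the Fes KO tumours against 72.4 to 102 CPM in Fes WT, so the groups did not overlap but reads were still counted to it in Fes KO. Some tumours stood apart in tissue content. Fes KO 2 had a summed keratinocyte marker level of 6250 CPM against 11.8 to 266 CPM in the other tumours, and Fes WT 3 had a summed skeletal muscle level of 15751 CPM against 13.7 to 1895 CPM. Xist was above 100 CPM in 3 tumours, Fes WT 5, Fes KO 1 and Fes KO 2.

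Whether reads could be split between relatives was checked on coding sequences of the GENCODE M21 annotation (GRCm38). The coding sequence of Entpd2 was 62.7% identical to that of Entpd1 and 62.6% to that of Entpd3 over the aligned bases, and the longest identical run shared with either was 17 bases. The stretch of 60 coding bases most alike in the 3 NTPDase genes is shown, because it marks how far the paralogs differ even where they are closest; capitals mark the 38 bases that are the same in all 3.
Entpd1, chr19:40724989-40725048, plus strand, exon 5: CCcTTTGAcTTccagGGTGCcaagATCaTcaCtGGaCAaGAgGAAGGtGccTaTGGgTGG
Entpd2, chr2:25398355-25398414, plus strand, exon 4: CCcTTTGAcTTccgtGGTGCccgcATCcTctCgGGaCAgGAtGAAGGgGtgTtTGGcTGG
Entpd3, chr9:120557456-120557515, plus strand, exon 6: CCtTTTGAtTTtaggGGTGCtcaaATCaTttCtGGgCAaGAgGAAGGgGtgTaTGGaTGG
Entpd1 differed from Entpd2 at 15 of these 60 bases and Entpd3 at 16. For the other relatives, the longest identical run was 23 bases between Enpp1 and Enpp3, and at most 15 bases between any 2 of the adenosine receptor genes.

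A closer neighbour shares sequence with Entpd2 outright. Entpd2 (ENSMUSG00000015085) lies on chromosome 2, 25395874 to 25401321, on the plus strand. Npdc1, the next gene on the same strand, has an annotated transcript that starts at 25399351 inside exon 6 of Entpd2. Exons annotated to Npdc1 cover 612 of the 1935 bases of the coding Entpd2 transcript, or 31.6%. The 60 bases at which the sharing begins are shown with the bases covered by exons of both genes in capitals.
Entpd2, chr2:25399321-25399380, plus strand, exon 6: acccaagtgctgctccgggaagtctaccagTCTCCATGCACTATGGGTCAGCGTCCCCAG
How the counting treated reads in the shared part is not given in the sources used here. The level of Entpd2 is therefore uncertain in scale, and Npdc1 is set beside it.

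Entpd2 was at 42.1 to 49.9 CPM in every Fes KO tumour and at higher, more scattered levels in Fes WT. In Fes WT 1 to 5 it was at 123, 129, 94.4, 111 and 65.9 CPM. In Fes KO 1 to 5 it was at 44.6, 49.9, 42.4, 49.7 and 42.1 CPM. The groups did not overlap, and the nearest tumours were Fes WT 5 and Fes KO 2. The means were 45.7 ± 3.84 CPM in the Fes KO tumours against 105 ± 25.5 CPM in Fes WT (SD, n = 5 each), from 577 to 2028 reads per tumour, so Fes KO had 43.7% of the Fes WT mean. The log2 fold change (Fes KO minus Fes WT) was -1.20 (SE 0.17), and the value that put Entpd2 in the set is its Benjamini-Hochberg adjusted p of 0.0232 from edgeR (quasi-likelihood test, adjusted across the whole table). It ranked 17 by p among the tested genes, of which 0.128% passed the same threshold in the lower direction and 0.0472% in the higher. DESeq2, with 1.78% of its genes called, and limma-voom with quality weights, with 0.776%, also called it. Both used the same tumours on which Entpd2 was chosen, so these calls are no separate support. Npdc1, with 25399351 to 25409494 as its span, was at 167 ± 23.4 CPM in the Fes KO tumours against 180 ± 20.2 CPM in Fes WT, and its log2 fold change of -0.11 (SE 0.12) did not pass (edgeR adjusted p = 0.808). The CPM of Entpd2, with no scaling for length, was equal to 21.7% to 38.3% of the CPM of Npdc1 in Fes KO and to 34.9% to 70.5% in Fes WT, so this ratio of separately counted genes overlapped between the groups at Fes WT 5 and Fes KO 2.

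**Figure D1:**
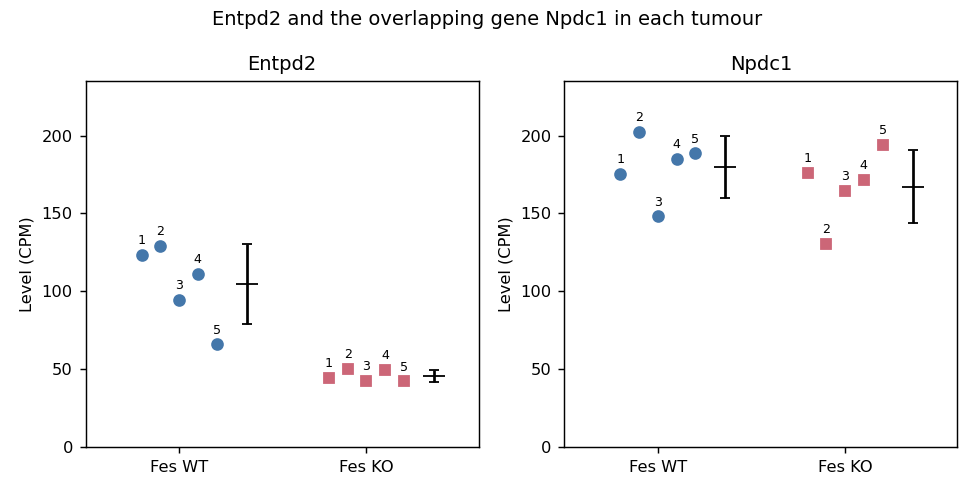
Level in CPM (vertical axis) of Entpd2 and of Npdc1 in each tumour, numbered by replicate, with the mean and SD of 5 tumours at the right of each group. All Fes KO tumours have 42.1 to 49.9 CPM of Entpd2, below the 65.9 to 129 CPM of Fes WT, while Npdc1 ranges from 130 to 194 CPM in Fes KO, and from 148 to 202 CPM in Fes WT.

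The call for Entpd2 depended on which tumours entered. Without Fes WT 1, 2 or 4, or without Fes KO 1, 3 or 5, the log2 fold change was between -1.11 and -1.19 but the adjusted p was 0.0684 to 0.103 (edgeR). It was also 0.0687 without Fes KO 2 and Fes WT 3 together, and 0.0973 with the replicate number as a block. Without the 3 Xist-expressing tumours it was -1.35 with an adjusted p of 0.0199, and without Fes WT 5 it was -1.32 with 9.6e-04.

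Marker levels of other cell types that could carry Entpd2 were read beside it. Of 11 fibroblast markers 8 had a log2 fold change below 0, and their summed level was 35273 to 59924 CPM in the Fes KO tumours against 31789 to 54170 CPM in Fes WT. All 12 macrophage markers lay below 0, with 1007 to 2237 CPM against 1593 to 3541 CPM. Of 12 Schwann cell markers 6 lay below 0, with 2134 to 5754 CPM against 2971 to 5347 CPM. Of T cell markers 9 of 9 tested lay below 0, with 4.19 to 27.5 CPM against 11.3 to 41.2 CPM, and of mast cell markers 9 of 10, with 81.3 to 324 CPM against 103 to 266 CPM. No marker of these 5 lists was at 0 in every tumour and none passed the test, and the summed levels overlapped between the groups in each list. At an unadjusted p below 0.05 in edgeR were 6 of the 12 macrophage markers, against 9.62% of all tested genes. The remaining lists were mixed. Of tested melanocyte markers 7 of 8 lay above 0 (median 3.24), with 4 at an unadjusted p below 0.05 in edgeR. Above 0 also lay 9 of 10 pericyte and smooth muscle, 8 of 10 endothelial and all 3 tested keratinocyte markers. Below 0 lay all 10 skeletal muscle markers (median -2.96) and 3 of 5 tested plasma cell markers. None of these passed the test either. The keratinocyte direction rested on Fes KO 2, whose mean log2 CPM of the tested markers was 7.93. In the remaining Fes KO tumours this mean was 0.94 to 1.74, below every Fes WT tumour (1.91 to 3.79). Melanocyte means were 5.53 in Fes KO 2, 0.38 to 2.77 in the remaining Fes KO tumours and 0.78 to 2.43 in Fes WT. The highest skeletal muscle means were 10.2 in Fes WT 3 and 7.12 in Fes KO 2. How far single tumours set these directions was not tested. The part of any of these cells in the Entpd2 difference was not tested. In bulk tumours fewer cells of a type and less RNA per cell cannot be told apart.

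The genes around Entpd2 were compared next. Within 100000 bases of Entpd2, 11 other genes were tested and 0 changed in edgeR, with a lowest adjusted p of 0.321. At an unadjusted p below 0.05 edgeR had 3 of the 11, against 9.62% of all tested genes, and DESeq2 called 0, against 1.78%. Their median log2 fold change was 0.03 and 4 of the 11 lay below 0. Uap1l1, named after its value was seen, had the lowest value at -0.48 (SE 0.14), and the prostaglandin synthase gene Ptgds the highest at 4.05 (SE 1.47, adjusted p = 0.422).

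Levels per length placed Entpd2 first. Per kilobase of exon Entpd2 had 35.3 ± 16.7 CPM over all 10 tumours (SD), ahead of Enpp1 at 7.73 ± 2.55 and Entpd1 at 6.39 ± 1.89. In all 10 tumours Entpd2 exceeded Enpp1, and the ranges of the 2 genes did not overlap. Below it the order was Adora2b at 4.58 CPM per kilobase, Nt5e at 3.54, Adora2a at 2.76, Ada at 2.01, Entpd3 at 1.58, Enpp3 at 0.682 and Adora1 at 0.236. Each of these neighbours overlapped in range with the next. This order of means over all tumours differs from that within the groups for some genes. Entpd1 came before Enpp1 in Fes WT and after it in Fes KO, and Nt5e came after Adora2a in Fes WT and before Adora2b in Fes KO. Enpp1 exceeded Entpd1 in 5 of 10 tumours, 1 Fes WT and 4 Fes KO, while Enpp3 exceeded Adora1 in 10 of 10. Using the longest transcript as the length put Nt5e above Adora2b, at 7.61 CPM per kilobase, and changed no other place in the order.

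**Figure D2:**
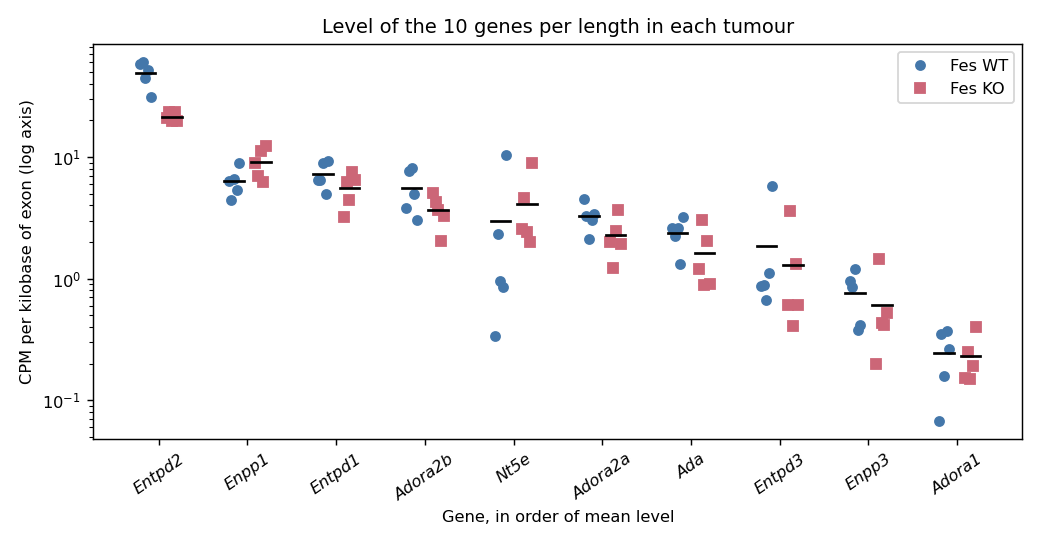
CPM per kilobase of exon (log axis) of the 10 genes, ordered by mean level, with 1 point per tumour and a black line at each group mean. Entpd2 lies above every other gene in both groups, and Nt5e and Entpd3 spread most widely between tumours.

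Of the summed level of the 3 NTPDase genes per kilobase, Entpd2 made up 83.4% ± 9.52 in Fes WT and 76.4% ± 5.89 in Fes KO (SD, n = 5 each). Entpd1 made up 12.9% ± 5.15 and 19.4% ± 4.49. The summed level itself was 46.0 to 68.0 CPM per kilobase in Fes WT and 24.7 to 33.2 in Fes KO, so the sums did not overlap. Since Entpd2 dominates the sum, this separation repeats that of Entpd2.

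Entpd1 (ENSMUSG00000048120, chromosome 19, 40612366 to 40741602), the CD39 gene of leukocytes and vessel walls, was at 18.0 to 42.0 CPM in the Fes KO tumours against 27.6 to 51.8 CPM in Fes WT. The groups overlapped, with 3 Fes KO tumours inside the Fes WT range and Fes KO 1 and Fes KO 3 below it. Its log2 fold change was -0.38 (SE 0.25, edgeR adjusted p = 0.646), and it was -0.23 without Fes KO 1 and -0.13 without the 3 Xist-expressing tumours. Entpd3 (ENSMUSG00000041608, chromosome 9, 120539818 to 120568327) was low in most tumours and high in 1 tumour of each group. In Fes WT 1 to 5 it was at 3.27, 3.31, 2.49, 4.21 and 21.7 CPM, and in Fes KO 1 to 5 at 2.27, 13.5, 1.54, 4.90 and 2.26 CPM. Fes WT 5 and Fes KO 2, which set its range, also had the highest summed keratinocyte levels of their groups, 266 and 6250 CPM, and the highest summed T cell marker levels, 41.2 and 27.5 CPM. Mean log2 CPM, unlike the sums, covers only the markers tested, 3 of 12 keratinocyte and 9 of 12 T cell markers. By this keratinocyte mean Fes WT 3 (3.79) was above Fes WT 5 (2.95). The rank correlation of Entpd3 within the groups was -0.15 with the keratinocyte mean and 0.50 with the T cell mean. The part of these cells was not tested. The log2 fold change of Entpd3 was -0.51 (SE 0.77, edgeR adjusted p = 0.867), and without Fes WT 5 it turned to 0.56 (adjusted p = 0.795). Without Fes KO 2 it was -1.35, which did not pass either, and without Fes KO 1, 3 or 5 it was between -0.33 and -0.28.

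Enpp1 (ENSMUSG00000037370, chromosome 10, 24637914 to 24712159, minus strand), whose product makes the mineralization inhibitor pyrophosphate and also degrades the STING ligand cGAMP, had a higher mean in Fes KO but overlapping groups. It was at 64.8, 45.6, 67.9, 54.4 and 91.9 CPM in Fes WT 1 to 5 and at 91.5, 71.8, 114, 63.7 and 127 CPM in Fes KO 1 to 5. Fes KO 3 and Fes KO 5 lay above every Fes WT tumour, and Fes WT 2 and Fes WT 4 below every Fes KO tumour. Its log2 fold change of 0.53 (SE 0.23) had an unadjusted p of 0.0447 and an adjusted p of 0.508 (edgeR), which does not pass; among the 10 genes it is the one next to Entpd2 in the order of p. Without the 3 Xist-expressing tumours it was 0.80 (adjusted p = 0.199). Enpp3 (ENSMUSG00000019989, chromosome 10, 24772406 to 24842823, minus strand), known as a marker of basophils and mast cells, was at 1.20 to 8.73 CPM in the Fes KO tumours against 2.26 to 7.22 CPM in Fes WT. The highest Fes KO value was that of Fes KO 2, and without that tumour its log2 fold change of -0.34 (SE 0.52) was -0.98 (edgeR adjusted p = 0.389). It was -0.11 without Fes WT 3 and -0.11 without Fes KO 1.

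Nt5e (ENSMUSG00000032420, chromosome 9, 88327197 to 88372092), the CD73 gene, varied more between tumours than between groups. In Fes WT 1 to 5 it was at 2.87, 19.9, 8.27, 7.32 and 89.5 CPM, a 31.1-fold range. In Fes KO 1 to 5 it was at 22.2, 39.8, 21.0, 17.1 and 76.2 CPM. All Fes KO tumours lay inside the Fes WT range, but 3 of 5 Fes WT tumours lay below every Fes KO tumour. The log2 fold change was 0.46 (SE 0.84, edgeR adjusted p = 0.893), and it moved with single tumours. Without Fes WT 5 it was 1.88 (adjusted p = 0.291), without the 3 Xist-expressing tumours 1.98 (adjusted p = 0.275), and without Fes KO 5 it was -0.03 (adjusted p = 0.996, all edgeR). Without Fes WT 1, 3 or 4 it was between 0.18 and 0.24. Ada (ENSMUSG00000017697, chromosome 2, 163726584 to 163750239, minus strand), which removes adenosine, was at 1.79 to 6.11 CPM in the Fes KO tumours against 2.62 to 6.40 CPM in Fes WT. Of the Fes KO tumours, 3 lay below the Fes WT range, and the log2 fold change of -0.56 (SE 0.39) did not pass (edgeR adjusted p = 0.665). Without Fes KO 2 it was -0.92 (edgeR adjusted p = 0.331).

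The adenosine receptor genes were low. Adora2a (ENSMUSG00000020178, chromosome 10, 75316877 to 75334784), the main adenosine receptor of T cells, was at 3.74 to 11.3 CPM in the Fes KO tumours against 6.50 to 13.8 CPM in Fes WT. Adora2b (ENSMUSG00000018500, chromosome 11, 62248984 to 62266453), a low-affinity receptor, was at 3.73 to 9.33 CPM and 5.64 to 15.0 CPM in that order. Both had overlapping groups, with log2 fold changes of -0.53 (SE 0.29, edgeR adjusted p = 0.595) and -0.59 (SE 0.32, adjusted p = 0.593). Without the 3 Xist-expressing tumours Adora2a moved to -0.26 and Adora2b to -1.04, neither of which passed (adjusted p at or above 0.228 over all alternatives for Adora2b and 0.265 for Adora2a). Adora1 (ENSMUSG00000042429, chromosome 1, 134199223 to 134235431, minus strand) was at 0.863 to 2.33 CPM in the Fes KO tumours against 0.392 to 2.14 CPM in Fes WT, with a log2 fold change of -0.09 (SE 0.45, edgeR adjusted p = 0.966) whose sign turned in 7 of 20 alternatives. Its exons overlap those of Mybph on the other strand over 1162 bases, and the strand setting of the counting is not given in the sources used here. Mybph, a muscle gene, was at 14.1 CPM in the muscle-rich Fes WT 3, where Adora1 was at 0.919 CPM, and at 0.126 to 2.87 CPM elsewhere.

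In all, 1 of the 10 genes passed the threshold in the comparison of the groups, against 0.175% of all tested genes, and this was Entpd2, which the comparison itself had selected. The next lowest adjusted p among the 10 genes was 0.508. Groups did not overlap for 1 of the 10, again Entpd2, against 1.90% of all tested genes in either direction and 1.11% lower in Fes KO. Of the 10 genes 8 lay below 0, with a median log2 fold change of -0.44, and Entpd2, chosen on this comparison, is among them. Of the 9 other genes 7 lay below 0, with a median of -0.38, where 47.6% of all tested genes lay below 0 with a median of 0.01. Among these 9, 1 gene, Enpp1, had an unadjusted p below 0.05, which is near the 9.62% of all tested genes.

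**Figure D3:**
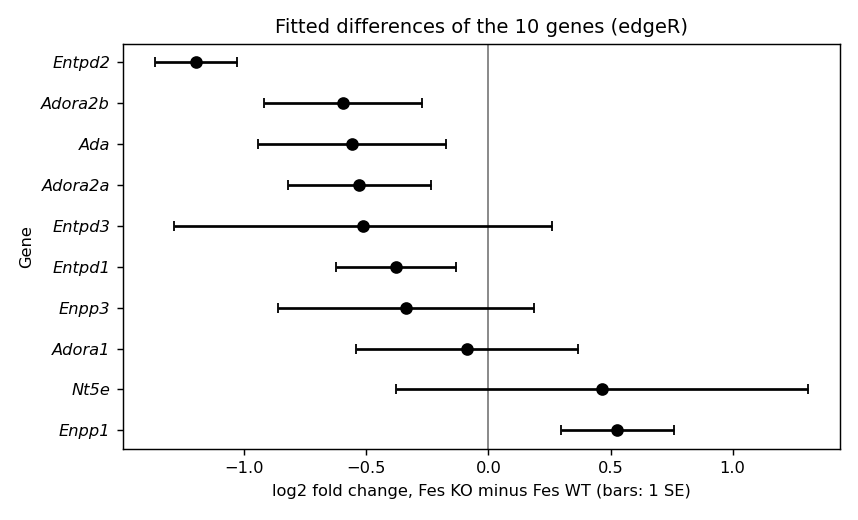
Log2 fold change of each of the 10 genes (horizontal axis, Fes KO minus Fes WT, bars 1 SE) from the edgeR fit of all 10 tumours. Entpd2 has -1.20, while the bars of Nt5e (0.46, SE 0.84) and Entpd3 (-0.51, SE 0.77) are the widest.

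Other genes of the pathway were taken from 4 lists with 64 names, of which 63 were found and 43 genes were tested. None passed over all genes in edgeR, with a lowest adjusted p of 0.274. At an unadjusted p below 0.05 edgeR had 3 of the 43, against 9.62% of all tested genes, and DESeq2 called 1, P2ry14, against 1.78%; both counts are near the background. The median log2 fold change was -0.04, with 24 genes below 0 and 19 above. Of the other ectonucleotidases 3 of 11 tested lay below 0 (median 0.09). Enpp2, which makes lysophosphatidic acid, was their most abundant gene per length, at 110 to 566 CPM in the Fes KO tumours against 25.7 to 419 CPM in Fes WT (log2 fold change 0.81, SE 0.76). The nucleotidase gene Cant1 had 0.15 (SE 0.07) and Enpp5 had -0.40 (SE 0.28). Entpd4 and Alppl2 were listed at 0 in every tumour. Entpd4 has a near-identical copy, Entpd4b, which was looked for but not found among the deposited genes under that name. The 0 of Entpd4 is therefore uncertain.

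Of the P2 nucleotide receptors 9 of 11 tested lay below 0, with a median of -0.36. P2ry14, the receptor for UDP-sugars, named after its value was seen, was at 5.55 to 24.5 CPM in the Fes KO tumours against 13.9 to 59.1 CPM in Fes WT, so the groups overlapped. Its log2 fold change of -1.67 (SE 0.45) did not pass in edgeR (adjusted p = 0.274). The ATP-gated channel genes P2rx4 and P2rx7 had -0.43 (SE 0.15) and -0.23 (SE 0.22), and the ADP receptor gene P2ry12, known in microglia and other macrophages, had -0.45 (SE 0.33). All 12 macrophage markers and all 9 tested T cell markers also lay below 0, with medians of -0.78 and -0.94, and the part of these cells in the receptor values was not tested.

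Nucleoside transport and adenosine metabolism genes had a median of -0.06, with 9 of 15 tested below 0. The equilibrative transporter gene Slc29a1 had 0.10 (SE 0.22), the cytosolic nucleotidase gene Nt5c 0.08 (SE 0.12) and the phosphorylase gene Pnp -0.22 (SE 0.18). Genes of nucleotide and pyrophosphate release had a median of 0.03, with 3 of 6 tested below 0. The gap junction gene Gja1 was at 215 to 884 CPM in the Fes KO tumours against 104 to 252 CPM in Fes WT, with a log2 fold change of 1.26 (SE 0.43) that did not pass in edgeR (adjusted p = 0.391). Ank, a pyrophosphate exporter, had 0.61 (SE 0.40), and the volume-regulated channel gene Lrrc8a had -0.09 (SE 0.14).

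**Figure D4:**
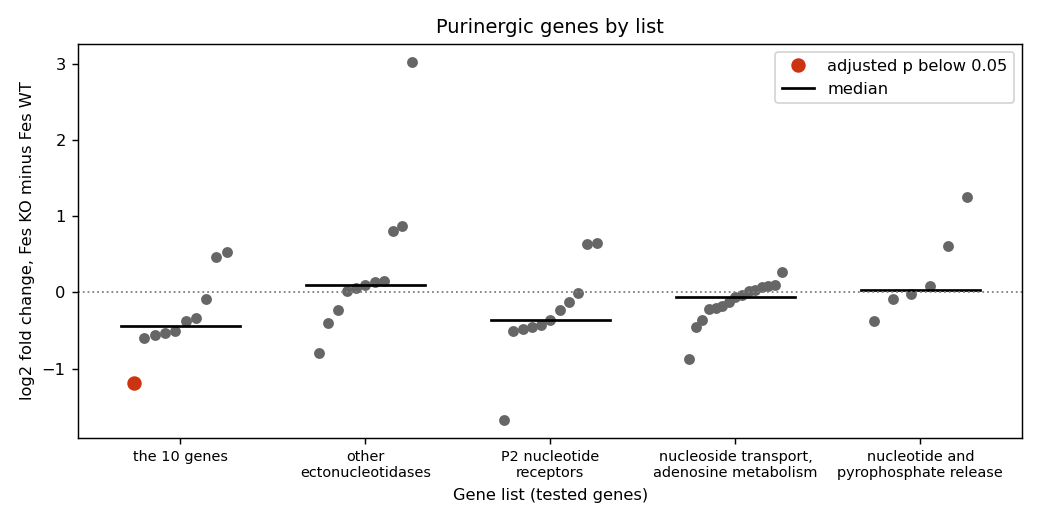
Log2 fold change (vertical axis, Fes KO minus Fes WT) of each tested gene of the 10 and of 4 other purinergic lists, with a black line at each median and red for an adjusted p below 0.05. Entpd2 is the single red point, and the medians of the other lists lie between -0.36 and 0.09.

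Variation inside the groups does not use the difference between them, and it set the 10 genes apart from each other. The SD of log2 CPM around the group means was 0.29 for Entpd2, close to the median of 0.29 over all tested genes but above 74.8% of 2533 genes of like level (mean log2 CPM within 0.5), whose median was 0.188. For Nt5e it was 1.45. Nt5e was above 99.0% of 2287 genes of like level, and Entpd3, at 1.22, above 88.4% of 1155. Each of the 10 genes lay above the median of its like-level genes, from the 58.9 percentile for Ada upwards. Within Fes KO alone Entpd2 had a highest to lowest ratio of 1.19, against 1.96 within Fes WT. The lowest Fes WT tumour was Fes WT 5 at 65.9 CPM, and the other Fes WT tumours were at 94.4 to 129 CPM. This ratio was not compared with that of genes of like level.

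How the 10 genes moved together inside the groups was examined with each group's mean subtracted. Over the 45 pairs, Entpd2 and Enpp1 had the strongest relation, opposed in sign, with Pearson r = -0.78 (exact permutation within groups, 2-sided p = 0.00222, adjusted p = 0.100) and a rank correlation of -0.90 (exact permutation p = 0.00431, adjusted p = 0.194) over 10 tumours. Neither passed the adjustment at 0.05. Without Fes KO 4 and Fes WT 5, the tumours farthest from the median of Enpp1, r was -0.78 again. In both groups the tumours lowest in Entpd2, Fes WT 5 and Fes KO 5, were the highest in Enpp1.

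The 10 genes were also set against the mean log2 CPM of 11 marker lists in the same way, giving 110 relations. None of these relations passed at an adjusted p of 0.05. The means cover only the markers tested, whereas the summed levels cover every listed marker. The lists cut by this were keratinocyte (3 of 12 tested), T cell (9 of 12), plasma cell (5 of 8) and melanocyte (8 of 10) markers. Adora2a ran with the Schwann cell markers, a list shared in part with melanoma cells, with r = 0.89 (exact permutation p = 0.00125, adjusted p = 0.0993) and a rank correlation of 0.95 (adjusted p = 0.138). Without Fes KO 2 and Fes WT 3 that r was 0.72. With the T cell markers Adora2a had r = -0.45, and -0.06 without Fes KO 2 and Fes KO 3. Enpp3 ran with the fibroblast markers with r = 0.91 (exact permutation p = 0.00181, adjusted p = 0.0993) and a rank correlation of 0.85 (adjusted p = 0.256), and r was 0.88 without Fes KO 2 and Fes WT 5. With the mast cell markers Enpp3 had r = 0.52 and a rank correlation of 0.20, and r was -0.05 without Fes KO 2 and Fes WT 4. Ada ran with the T cell markers with r = 0.86 (exact permutation p = 0.00313, adjusted p = 0.115) and a rank correlation of 0.90 (adjusted p = 0.237), and r was 0.71 without Fes KO 2 and Fes KO 3. Ada also ran with the macrophage markers (r = 0.83, exact permutation p = 0.0131, adjusted p = 0.289). Entpd1 ran with the endothelial markers with r = 0.81 (exact permutation p = 0.0131, adjusted p = 0.289), and r was 0.55 without Fes KO 1 and Fes WT 4. Entpd2 had r = 0.52 with the fibroblast markers, with a rank correlation of 0.25, and r was 0.22 without Fes KO 2 and Fes WT 5. It had r = 0.15 with macrophage markers (-0.21 without Fes KO 4 and Fes WT 1) and -0.10 with Schwann cell markers. With T cell markers Entpd2 had r = -0.30 (-0.68 without Fes KO 2 and Fes KO 3), and with mast cell markers -0.02. For some lists the groups taken alone differed in sign. With T cell markers r was -0.90 in Fes WT and 0.85 in Fes KO, and with macrophage markers -0.15 and 0.94. Each of these values rests on 5 tumours, and the difference in sign was not tested.

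**Figure D5:**
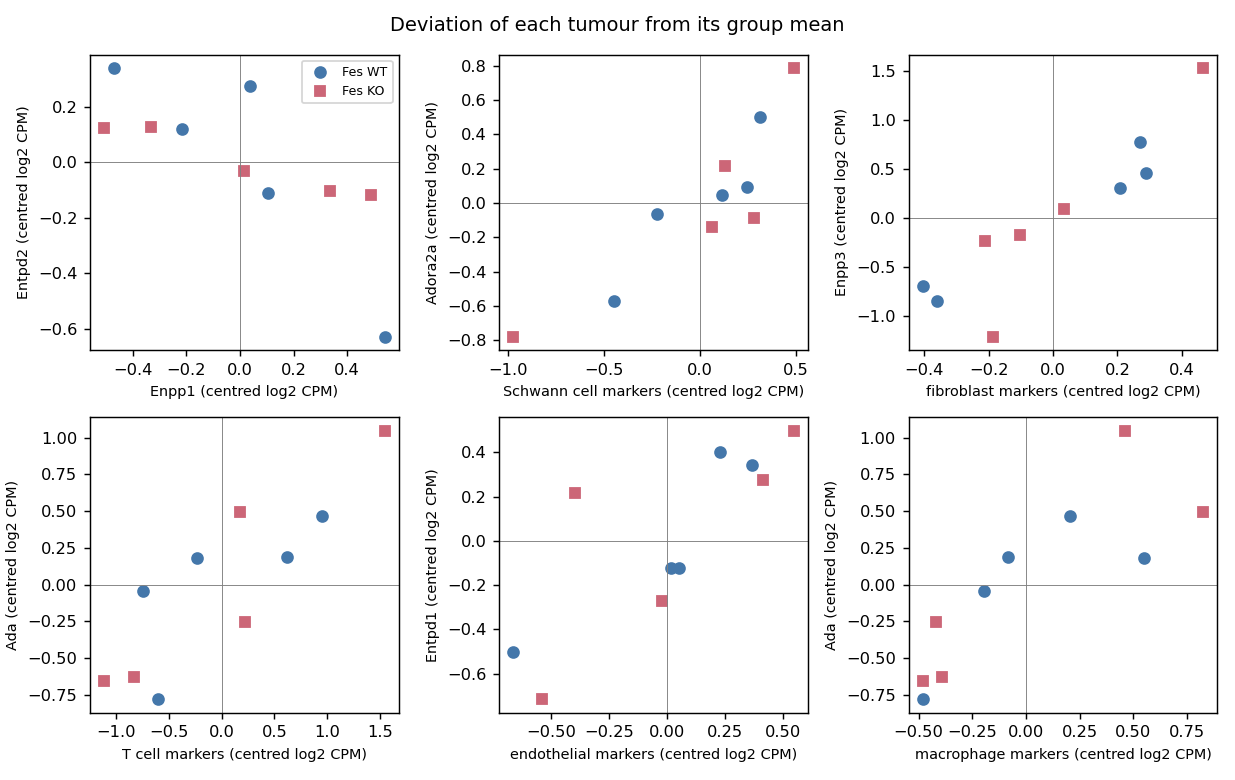
Deviation of each tumour from its group mean in log2 CPM for a gene (vertical axes) against Enpp1 or the mean of a marker list (horizontal axes), circles Fes WT and squares Fes KO. Entpd2 slopes down against Enpp1 (r = -0.78), and Adora2a, Enpp3, Ada and Entpd1 slope up against the marker lists named on their axes (r from 0.81 to 0.91); none passed adjustment.

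The genes most like each of the 10 were found among 13352 tested genes, as a description with no test. Over all 10 tumours, where the difference between the groups enters, Entpd2 was most like C7 (r = 0.96), Acp1 (0.96), Gstt1 (0.95), Ggt5 (0.94) and Gabra3 (0.94). Ggt5, a leukotriene-processing gamma-glutamyl transferase, was at 10.7 CPM in the Fes KO tumours against 31.7 CPM in Fes WT on average. With the group means subtracted, none of these was among the 3 nearest, which were Osbpl5 (r = 0.91), the leukotriene synthase gene Ltc4s (0.90) and the monooxygenase gene Fmo2 (0.89). Ada was nearest to the lymphocyte gene Cd7 (0.98), Rnf19b and Rinl, and Entpd3 to Il18 (0.96), Il18r1 and Plcg2. Nt5e was nearest to Stk38l (0.96), Grip2 and Mcc, Entpd1 to Tnfrsf23 (0.96), Elmo1 and Mfng, and Enpp1 to Dnaaf5 (0.93), Pgp and Car7. Enpp3 was nearest to Frat2 (0.94), Ets2 and Dse, Adora1 to Vit (0.91), Ptgfr and Slmo1, Adora2a to Wdr45b (0.98), Rcbtb1 and BC002059, and Adora2b to Fam220a (0.94), Sec16a and Urb1. With 10 tumours and this many genes, values near 0.9 are reached for each of the 10.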

How the data were processed

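RNA sequencing counts per gene for 10 mouse melanomas were used, with total counts of 13226783 to 16599120 per tumour. Per the submitters' processing notes, FastQC, STAR 2.51b and Subread 1.4.6 were used, with the builds mm10 and GRCm38; the sources used here give neither the strand setting nor the treatment of reads in overlapping genes. The authors deposited raw counts and log2 values. The deposited log2 values equal log2(count/size factor + 1) within 5.0e-11. Samples were grouped by their titles. The main test was edgeR 4.0.16 (quasi-likelihood, TMM, filterByExpr) in R 4.3.3 on the deposited counts, with Benjamini-Hochberg adjustment over 14816 genes and a threshold of 0.05. On simulated data for this comparison (14816 genes) it recovered 45 of 100 genes changed 2-fold and 81 of 100 changed 4-fold, with 131 calls in all, 5 of them on genes left unchanged. CPM are TMM-scaled; lengths are the union of exons in GENCODE M21. Relations used log2 CPM (prior count 2) and permutations within groups. Alternatives were RLE factors, library size alone, other filters, DESeq2 1.42.0, limma 3.58.1 (voom with quality weights, and on the deposited log2 values), a replicate block, and tumours left out. Mitochondrially encoded genes had 0 counts in all tumours. No 2 tumours of a group agreed within sampling noise (smallest chi-square per gene 21.2).

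The members and lists were chosen with earlier results of these data known. Named genes were all 10 members, the genes of each pathway list that passed the test, the 3 of each list with the highest level per kilobase, and the genes nearest in r: 5 for Entpd2 over all tumours and 3 for each member with group means subtracted. Predicted genes and pseudogenes were left out of that search. P2ry14, Uap1l1, Ptgds and Tyr were named after their values were seen. No protein sequences were used here.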

Additional observations from a re-analysis of the deposited data

Results flagged for a closer look

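In 56 sets of 5 values, 14 had a tumour far from the other 4 of its group, with a gap over 0.71 of the range. Chance flags about 1 in 20 where values are independent and normally distributed. CPM need not be normal and the sets reuse the same 10 tumours, so the 14 cannot be read against that rate. Among the 10 genes these were Entpd3 in Fes WT 5 (21.7 CPM) and Fes KO 2 (13.5 CPM), Nt5e in Fes WT 5 (89.5 CPM) and Enpp3 in Fes KO 2 (8.73 CPM). Mybph, which overlaps Adora1, stood out in Fes WT 3 (14.1 CPM) and Fes KO 2 (2.87 CPM).

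Summed levels of lists stood out mostly in Fes KO 2. That tumour had 6250 CPM of keratinocyte, 1895 CPM of skeletal muscle, 602 CPM of melanocyte, 795 CPM of plasma cell and 2134 CPM of Schwann cell markers, the last being low, and 1099 CPM of the nucleotide and pyrophosphate release genes. Fes WT 3 had 15751 CPM of skeletal muscle markers. Fes KO 5 had 778 CPM of the nucleoside transport and adenosine metabolism genes.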

How the results depend on the processing

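Entpd2 lay below 0 in all 20 alternatives (log2 fold change -1.35 to -1.11) and passed in 12; over all 20 the adjusted p was 1.1e-07 to 0.103, and in the 8 that did not pass 0.0684 to 0.103; leaving out 1 tumour kept the call in 4 of 10 fits. The 26 genes called over the whole table became 14 with a mean of at least 1 CPM, 64 without the Xist-expressing tumours (28 lower, 36 higher; 19 and 7 with all tumours), 300 with DESeq2 (201 lower, 99 higher) and 115 with limma-voom; leaving out 1 tumour gave 10 to 54. Of the 10 genes, 0 to 1 passed when 1 tumour was left out, and 0 without Fes KO 2 and Fes WT 3 together. Of the other purinergic genes, DESeq2 called 1. Adora1 turned to 0.054 without the Xist-expressing tumours, to 0.031 with limma on the deposited log2 values, and ranged from -0.38 to 0.12 when 1 tumour was left out (above 0 without Fes WT 2, Fes WT 4, Fes KO 1 or Fes KO 3). Entpd3 turned to 0.56 without Fes WT 5, and Nt5e to -0.028 without Fes KO 5. The highest Nt5e value was 1.98, without the Xist-expressing tumours, and 1.88, without Fes WT 5, when 1 tumour was left out. The other 6 genes kept their sign throughout. The cause was not tested.

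With the replicate number as a block, 4 genes passed over the whole table and 0 of the 10, Entpd2 having -1.16 (edgeR adjusted p = 0.0973) and Adora1 turning to 0.0039. The numbers did not pair the tumours: same-numbered tumours had correlations of 0.17, -0.38, -0.21, -0.11 and 0.14 in their deviations from the group means, and 1 of 10 matched its own number best. With exons less the bases shared with overlapping genes, a length chosen after seeing the data, Entpd2 had 49.6 CPM per kilobase. That level uses all reads counted to Entpd2, and would hold only if none of them came from the shared bases, which is not known. Levels per kilobase of the longest transcript were 8.44 for Entpd1, 11.7 for Enpp1 and 7.61 for Nt5e. Adora1, at 0.392 to 2.33 CPM, is the gene most limited by depth.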
